A study of Mus musculus with 8 samples.

Results

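A group of 10 genes that make, sense or break down sphingosine 1-phosphate (S1P) was followed in primary mouse ovarian follicular cells. They are the alkaline ceramidases Acer1, Acer2 and Acer3, the sphingosine kinases Sphk1 and Sphk2, the S1P receptors S1pr1, S1pr2, S1pr3 and S1pr5, and the S1P lyase Sgpl1. They were chosen by name and matched to the arrays by mouse Entrez ID, and all 10 were found among the 24235 genes measured. Acer1 and S1pr5 were already known to be among the genes that differed most with FOXL2 siRNA on these arrays, so their differences between siRNAs are given below as descriptions, without a test.

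The cells came from follicles with several granulosa cell layers and no antrum, taken from ovaries of 8-week-old Swiss mice, with 5 mice pooled per replicate. Follicles were kept overnight, then dispersed and grown as a monolayer without sorting, for 9 days in all, so the labels describe them only as mostly granulosa cells. All 4 groups received 12 pmol siRNA with a pDsRed plasmid, and were kept without androstenedione in charcoal-treated serum. The siRNA was a control or was directed against FOXL2, and each was combined with vehicle or with 100 nM 17β-estradiol (E2) for the 10 h before lysis. The siRNA step lasted 24 h, which the labels count up to lysis and the study's text places before E2. Each of these 4 combinations was measured on 2 one-colour Agilent arrays of different cultures. FOXL2 is a forkhead transcription factor of granulosa cells, and the design asks how its depletion and E2 act alone and together.

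Ceramide is the lipid from which this pathway starts. A ceramidase cuts it into a fatty acid and sphingosine, a sphingosine kinase adds a phosphate to make S1P, and S1P is then exported to G protein-coupled receptors at the cell surface or cut irreversibly by the lyase. Ceramide is known for promoting cell death and S1P for promoting survival and migration, and in the ovary S1P is known for protecting oocytes and follicles from toxic treatment.

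Levels are given as log2 scaled signal, so that 1 unit is a doubling. Scaled signal is the background-subtracted Cy3 intensity divided by the 75th percentile of the array and multiplied by 320 units on all arrays. Levels of different genes cannot be set against each other because each comes from its own probes. A probe was taken as measured on an array where the scanner software called its spots well above background, and a group without such a call on any array has only a bound. Differences were tested with limma over the 15638 genes that passed a filter on dim signal. A gene was called where its adjusted p was under 0.05.

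The arrays were alike in quality, with replicates correlating across genes at 0.989 to 0.992 and 51.3 to 55.5% of probes well above background per array. The targeted gene, whose averaged level follows the brighter of its 2 probes, was not called different between siRNAs. On the control siRNA arrays Foxl2 read 13.46 and 13.01 with vehicle and 12.94 and 12.76 with E2. On the FOXL2 siRNA arrays it read 13.41 and 13.39 with vehicle and 13.12 and 12.96 with E2. It differed by 0.18 over both treatments (SE 0.10, limma adjusted p = 0.334), and only the dimmer of its 2 probes was lower, by a difference of -0.97 (SE 0.19, adjusted p = 0.0199 over probes). Directions below are therefore those of the arrays labelled FOXL2 siRNA. Of the granulosa list, Fst and Esr2 were lower in them (-2.02 and -0.46, limma adjusted p = 0.000226 and 0.0167), and Fshr and Amh were well above background on none of the arrays. Inha, Inhba and Cyp19a1 of this list were not called (0.12, -0.04 and -0.75, limma adjusted p = 0.231, 0.746 and 0.0819).

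Acer1 and S1pr5, the genes already known to differ, were higher with FOXL2 siRNA, and Sphk1 was higher and S1pr1 lower beside them. Of the 7 other genes tested, 1 was called higher (Sphk1) and 1 lower (S1pr1) over both treatments, beside 12.6% of all genes called (6.41% higher and 6.19% lower). With vehicle 1 of 7 was called, lower (S1pr1), beside 6.57% (3.63% and 2.94%). With E2 2 of 7 were called, Sphk1 higher and S1pr1 lower, beside 4.39% (2.25% and 2.14%). The genes were taken up with these comparisons known, so nothing is read from these shares. For the same reason the p-values of Sphk1 and S1pr1 between siRNAs are not tests on independently chosen genes. Acer2 did not pass the filter.

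**Figure D1:**
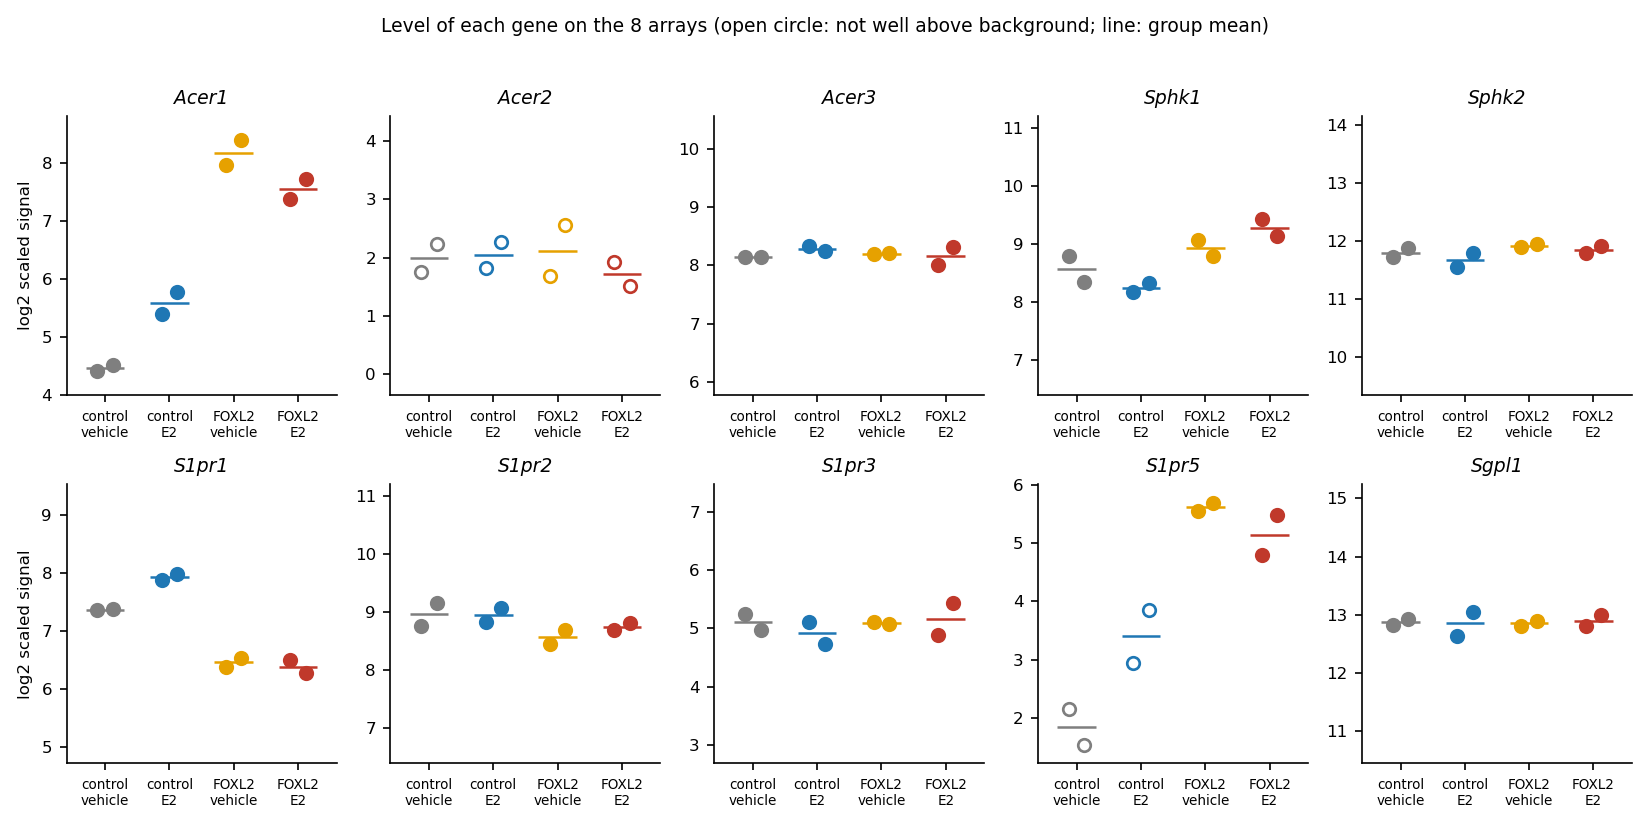
Log2 scaled signal (vertical axis, each panel spanning the same number of log2 units) of the 10 genes on the 8 arrays, by siRNA and treatment; points are arrays, lines are group means, and open circles are arrays where the gene was not well above background. Acer1 and S1pr5 sit higher and S1pr1 lower on every FOXL2 siRNA array than on any control siRNA array, and Acer2 is not well above background on any array.

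Among the ceramidases, Acer1 stood apart. Acer1 is the alkaline ceramidase known from the epidermis, where it acts on ceramides with very long chains. With control siRNA it read 4.42 and 4.52 with vehicle and 5.40 and 5.77 with E2. With FOXL2 siRNA it read 7.95 and 8.38 with vehicle and 7.37 and 7.72 with E2. It was well above background on all 8 arrays, and the lowest FOXL2 siRNA array lay above the highest control siRNA array. The difference between siRNAs was 3.70 (SE 0.22) with vehicle, or 13.0-fold, and 1.96 (SE 0.22) with E2, or 3.90-fold. Normexp background correction with an offset of 50 gave smaller differences, 2.08 with vehicle and 1.15 with E2.

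From the highest, the groups of Acer1 were vehicle and then E2 with FOXL2 siRNA, followed by E2 and then vehicle with control siRNA. Its neighbours at the top lay closest, at 8.17 ± 0.30 and 7.55 ± 0.25 (SD, n = 2), and those at the bottom lay at 5.58 ± 0.26 and 4.47 ± 0.08, without overlap in either pair. The E2 difference was 1.11 (SE 0.22) with control siRNA and -0.62 (SE 0.22) with FOXL2 siRNA, and neither passed the threshold (limma adjusted p = 0.351 and 1.0). The difference between these E2 effects, -1.73 (SE 0.32), did not pass it either (limma adjusted p = 0.153). With the replicate number as a block, the E2 difference with control siRNA and the difference between the E2 effects were called (limma adjusted p = 0.00485 and 0.00129). These comparisons share arrays with the one for which Acer1 was singled out. By the rule of the study, which asks for group means at least 1 log2 unit and more than 2 times the sum of both SDs apart, the E2 difference with control siRNA qualified, at 1.11 against 0.67, and that with FOXL2 siRNA did not.

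The sequence around the start of Acer1, chr17:56982077-56982376 on the minus strand of GRCm38.p6, is shown because FOXL2 binds forkhead sites and Acer1 differed most among the ceramidases. It runs from 250 bases before the RefSeq transcript start to 50 bases after it.
Acer1: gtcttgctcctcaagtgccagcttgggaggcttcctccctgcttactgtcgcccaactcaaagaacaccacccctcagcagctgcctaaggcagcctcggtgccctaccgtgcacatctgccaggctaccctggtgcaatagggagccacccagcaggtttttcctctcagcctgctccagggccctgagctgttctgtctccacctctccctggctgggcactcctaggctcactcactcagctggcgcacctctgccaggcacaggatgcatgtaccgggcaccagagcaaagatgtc
It held neither forkhead motif searched, GTAAACA or ATAAACA, on either strand, and no exact match to the palindromic estrogen response element. Either forkhead motif occurs in 7.97% of the 32851 promoter windows of the RefSeq table, and the palindrome in 0.07%. Its GC content was 61.0%, above that of 73.1% of the windows.

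No difference was called for the other 2 alkaline ceramidases. Acer3, an enzyme of the endoplasmic reticulum and Golgi that prefers unsaturated ceramides, read 8.14 and 8.15, 8.33 and 8.25, 8.20 and 8.21, and 8.01 and 8.32 in the groups in the order above (control siRNA vehicle and E2, then FOXL2 siRNA vehicle and E2). The groups overlapped, and the difference over both treatments was -0.03 (95% interval -0.25 to 0.18, limma adjusted p = 0.862). Acer2, the Golgi enzyme, read between 1.51 and 2.56 and neither of its 2 probes was well above background on any array, so no difference is given for it.

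Of the kinases, Sphk1 was higher with FOXL2 siRNA. Sphk1 is the cytosolic sphingosine kinase that moves to the plasma membrane on activation. With control siRNA it read 8.80 and 8.35 with vehicle and 8.17 and 8.32 with E2. With FOXL2 siRNA it read 9.06 and 8.80 with vehicle and 9.43 and 9.14 with E2. The highest control array met the lowest FOXL2 siRNA array at 8.80. The difference was 0.69 over both treatments (SE 0.13, limma adjusted p = 0.0121), 1.04 with E2 (SE 0.18, limma adjusted p = 0.0223) and 0.35 with vehicle (SE 0.18, limma adjusted p = 0.350). The difference between the E2 effects was 0.68 (SE 0.26, limma adjusted p = 0.905), so unequal responses to the siRNA with vehicle and with E2 were not shown. Both probes of Sphk1 gave similar differences with E2, 1.06 and 0.97. The call with E2 was lost without any 1 of the 4 arrays compared (highest adjusted p = 0.150, without control siRNA E2 replicate 1) and, without an intensity trend in the spread, at an adjusted p of 0.0597. The call over both treatments was lost without control siRNA E2 replicate 1 (0.66, limma adjusted p = 0.0525).

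Sphk1 has 5 promoter windows in the RefSeq table, and 2 overlapping ones hold a forkhead motif. The window at chr11:116532201-116532500 on the plus strand of GRCm38.p6 is shown for that reason, with ATAAACA, read on the opposite strand, in capitals.
Sphk1: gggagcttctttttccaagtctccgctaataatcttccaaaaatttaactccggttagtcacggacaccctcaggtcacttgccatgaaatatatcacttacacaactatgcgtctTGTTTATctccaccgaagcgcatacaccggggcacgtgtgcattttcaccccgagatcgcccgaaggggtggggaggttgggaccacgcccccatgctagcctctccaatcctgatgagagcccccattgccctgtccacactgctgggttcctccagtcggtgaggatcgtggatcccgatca
The motif ATAAACA occurs in 4.60% of all promoter windows, and its presence says nothing about binding. None of the windows of Acer2, Acer3, Sphk2, S1pr2, S1pr3 or Sgpl1 held GTAAACA or ATAAACA, and S1pr1 was not searched.

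Sphk2, the kinase found largely in the nucleus and at organelles, read 11.72 and 11.88, 11.55 and 11.79, 11.89 and 11.95, and 11.80 and 11.91 in the same order of groups. Its arrays overlapped between siRNAs, and the difference over both treatments was 0.15 (95% interval -0.02 to 0.33, limma adjusted p = 0.258).

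S1pr1 was the receptor that was lower with FOXL2 siRNA. It is the receptor known for the exit of lymphocytes from lymphoid organs and for the stability of vessels. With control siRNA it read 7.37 and 7.38 with vehicle and 7.88 and 7.98 with E2. With FOXL2 siRNA it read 6.38 and 6.54 with vehicle and 6.51 and 6.27 with E2. All 4 FOXL2 siRNA arrays lay below all 4 control siRNA arrays. The difference was -1.23 over both treatments (SE 0.10, limma adjusted p = 0.000523), which leaves 42.7% of the control level. It was -0.92 with vehicle (SE 0.15, limma adjusted p = 0.0125) and -1.54 with E2 (SE 0.15, limma adjusted p = 0.00272). The fit of the vehicle groups alone gave an adjusted p of 0.0545, and the vehicle call was also lost without either FOXL2 siRNA vehicle array or without control siRNA vehicle replicate 2 (highest adjusted p = 0.0710). With normexp correction the difference with vehicle was -0.53 (limma adjusted p = 0.0243).

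With control siRNA, the E2 arrays of S1pr1 lay above the vehicle arrays by 0.56 (SE 0.15, limma adjusted p = 0.712), and with FOXL2 siRNA the E2 difference was -0.07 (SE 0.15, limma adjusted p = 1.0). The difference between the E2 effects was -0.63 (SE 0.21, limma adjusted p = 0.757). The 2 control groups did not overlap, but none of these differences passed the threshold.

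S1pr5 was well above background with FOXL2 siRNA alone. It is the receptor known from oligodendrocytes and natural killer cells. It read 5.55 and 5.70 with FOXL2 siRNA and vehicle and 4.80 and 5.48 with FOXL2 siRNA and E2, well above background on all 4 arrays. With control siRNA it read 2.15 and 1.53 with vehicle and 2.94 and 3.85 with E2, and was not well above background on any of the 4. The lowest FOXL2 siRNA array lay above the highest control siRNA array. With each control array put at its lowest signal called well above background, or at its own reading where that was higher, S1pr5 was at least 3.85-fold higher with FOXL2 siRNA and vehicle and at least 2.42-fold higher with FOXL2 siRNA and E2. The measured means were 5.63 against 1.84 with vehicle and 5.14 against 3.40 with E2.

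These differences carry no test, since S1pr5 was taken up for them and passed the filter on dim signal through its FOXL2 siRNA arrays. Normexp correction with the offset of 50 gave fitted differences of 0.67 with vehicle and 0.40 with E2, against 3.78 and 1.74. Within FOXL2 siRNA, E2 and vehicle differed by -0.49. No test is given for it, because the fitted spread also includes the control siRNA arrays, which were not well above background. With control siRNA neither group was well above background, so the fitted E2 difference there is not read.

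The start of S1pr5, chr9:21248394-21248693 on the minus strand of GRCm38.p6, is shown because S1pr5 and Acer1 were both higher with FOXL2 siRNA.
S1pr5: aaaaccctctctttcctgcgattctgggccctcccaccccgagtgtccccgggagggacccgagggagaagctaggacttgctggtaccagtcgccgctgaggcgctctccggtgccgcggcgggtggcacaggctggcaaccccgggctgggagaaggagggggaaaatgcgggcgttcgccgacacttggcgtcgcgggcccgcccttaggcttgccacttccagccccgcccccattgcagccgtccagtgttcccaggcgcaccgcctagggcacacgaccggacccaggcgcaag
It held none of the 3 motifs either. Its GC content was 69.3%, above that of 89.5% of the windows, and it had 27 CG dinucleotides, where the Acer1 window had 5.

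The remaining receptors gave no call. S1pr2, which couples to more kinds of G protein than S1pr1 does, read 8.76 and 9.15, 8.82 and 9.06, 8.44 and 8.68, and 8.69 and 8.80 in the same order of groups. The siRNA groups overlapped, and the difference over both treatments was -0.30 (95% interval -0.57 to -0.03, limma adjusted p = 0.144). With the replicate block it was called (limma adjusted p = 0.00848). S1pr3, which couples to several G proteins, read 5.24 and 4.97, 5.11 and 4.73, 5.11 and 5.08, and 4.89 and 5.43. Its groups overlapped too, with a difference of 0.11 (95% interval -0.34 to 0.56, limma adjusted p = 0.780).

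Sgpl1, the lyase that ends the pathway, gave no call either. It read 12.83 and 12.92, 12.64 and 13.05, 12.80 and 12.90, and 12.80 and 13.00 in the same order. The groups overlapped, and the difference over both treatments was 0.01 (95% interval -0.22 to 0.25, limma adjusted p = 0.956).

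**Figure D2:**
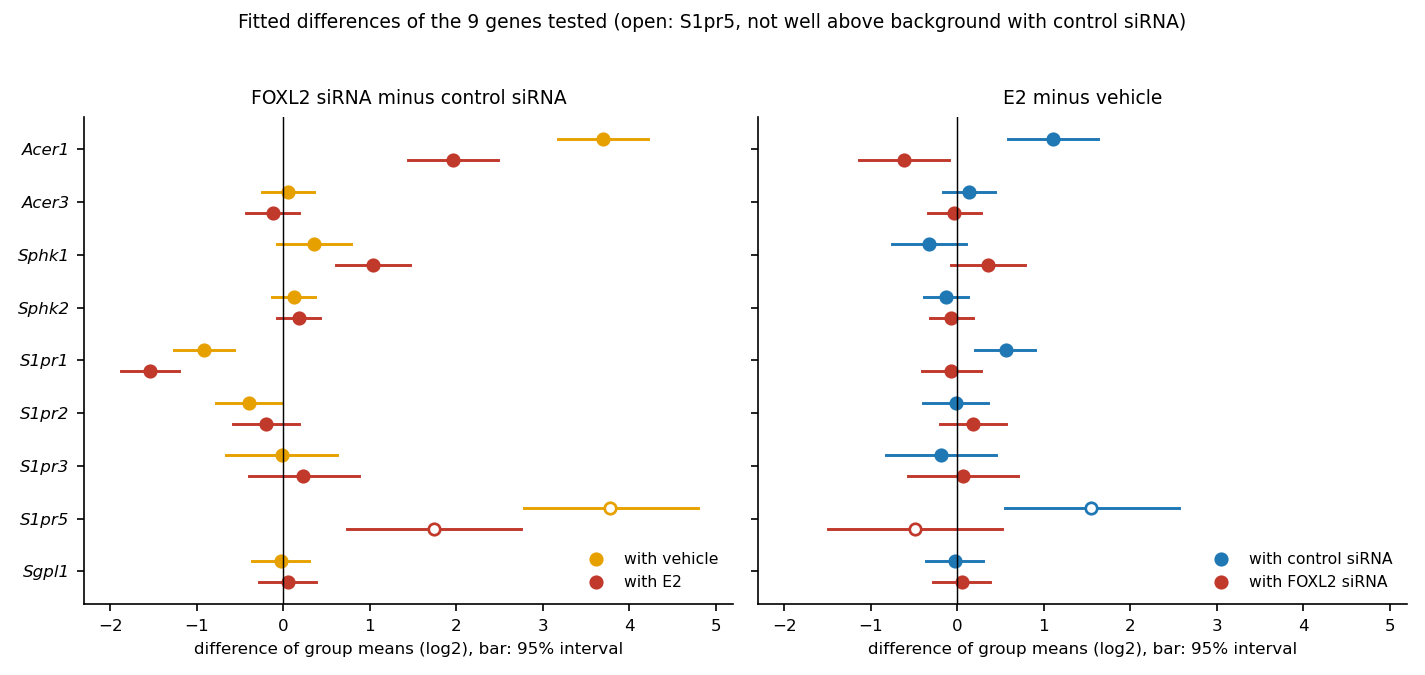
Fitted differences of the 9 genes tested (horizontal axis, log2), on the left FOXL2 siRNA minus control siRNA and on the right E2 minus vehicle, each in both arms; points are differences of means of 2 arrays and bars their 95% intervals. The siRNA differences of Acer1 are 3.70 with vehicle and 1.96 with E2 and those of S1pr1 are -0.92 and -1.54. Open points mark S1pr5, whose control arrays are not well above background. Its point for E2 with control siRNA is not read. The bars of Acer1 between siRNAs and all bars of S1pr5 are not tests.

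In the fit without a block, E2 moved none of the genes past the threshold. With S1pr5 left out because its control arrays were not well above background, limma called 0 of 8 genes for E2 with control siRNA, beside 0.0192% of all genes, and 2, Acer1 and S1pr1, had an unadjusted p under 0.05. With FOXL2 siRNA it called 0 of 8, beside 0.0128%, and 1, Acer1, had an unadjusted p under 0.05. For the difference between the E2 effects it called 0 of 8, beside 0.243%, and 3, Acer1, Sphk1 and S1pr1, had an unadjusted p under 0.05. Over all genes, 716, 476 and 767 had an unadjusted p under 0.05 in these 3 comparisons.

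The rest of sphingolipid metabolism was read from a list of 44 genes, of which 43 were on the array and 38 were tested. Over both treatments 4 were higher and 3 lower with FOXL2 siRNA, which is 18.4% beside 12.6% of all genes, and the list's median difference was 0.00. With vehicle 3 were higher and 2 lower, which is 13.2% beside 6.57%, and with E2 2 were higher and 1 lower, which is 7.89% beside 4.39%. With the replicate block, 8 were called with vehicle, 9 with E2 and 11 over both treatments, beside 18.7, 14.9 and 27.7% of all genes. No gene was called for E2 with either siRNA, where 1 gene with control siRNA and 2 with FOXL2 siRNA had an unadjusted p under 0.05. Sptlc3, Sptssb, Degs2, Ugt8a and the receptor S1pr4 were below the filter, and Cers1 was not matched.

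The genes called sit at several steps around ceramide. Smpd3, a neutral sphingomyelinase that releases ceramide from sphingomyelin, read 5.76 to 6.38 on the control siRNA arrays and 8.15 to 8.52 on the FOXL2 siRNA arrays. Its difference was 2.19 over both treatments (SE 0.14, limma adjusted p = 0.000219) and close to that with each, 2.16 with vehicle and 2.23 with E2. Smpd2, another neutral sphingomyelinase, was lower by a difference of -0.35 (SE 0.08, limma adjusted p = 0.0266). Ugcg, which adds glucose to ceramide, read 8.22 to 8.44 against 8.99 to 9.52, a difference of 1.01 (SE 0.09, limma adjusted p = 0.000616).

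Both ceramide synthases that mainly attach palmitic acid were called, in opposite directions. Cers6 was higher by 0.90 (SE 0.16, limma adjusted p = 0.00919) and Cers5 lower, with a difference of -0.92 (SE 0.08, limma adjusted p = 0.000610). Cers5 read 13.63 to 13.79 with control siRNA and 12.70 to 12.96 with FOXL2 siRNA, without overlap. Kdsr, a reductase early in ceramide synthesis, was lower (-0.37, SE 0.09, limma adjusted p = 0.0345).

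Spns2, the transporter that exports S1P, was higher by 1.17 over both treatments (SE 0.27, limma adjusted p = 0.0275). Its arrays read 5.67 to 6.92 with control siRNA and 7.10 to 8.08 with FOXL2 siRNA. Galc, which removes galactose from galactosylceramide, was lower with vehicle (-0.92, SE 0.19, limma adjusted p = 0.0320) and not called over both treatments. The calls of Spns2, Kdsr, Smpd2 and Galc were lost in 4, 5, 7 and 5 of the 8 fits that left out 1 array. Their differences in these fits were 0.92 to 1.41, -0.43 to -0.31, -0.42 to -0.28 and -1.16 to -0.67. Spns2, Kdsr and Smpd2 were not called with vehicle or with E2 taken separately. Those of Smpd3, Ugcg, Cers5 and Cers6 over both treatments were not lost in any fit run.

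**Figure D3:**
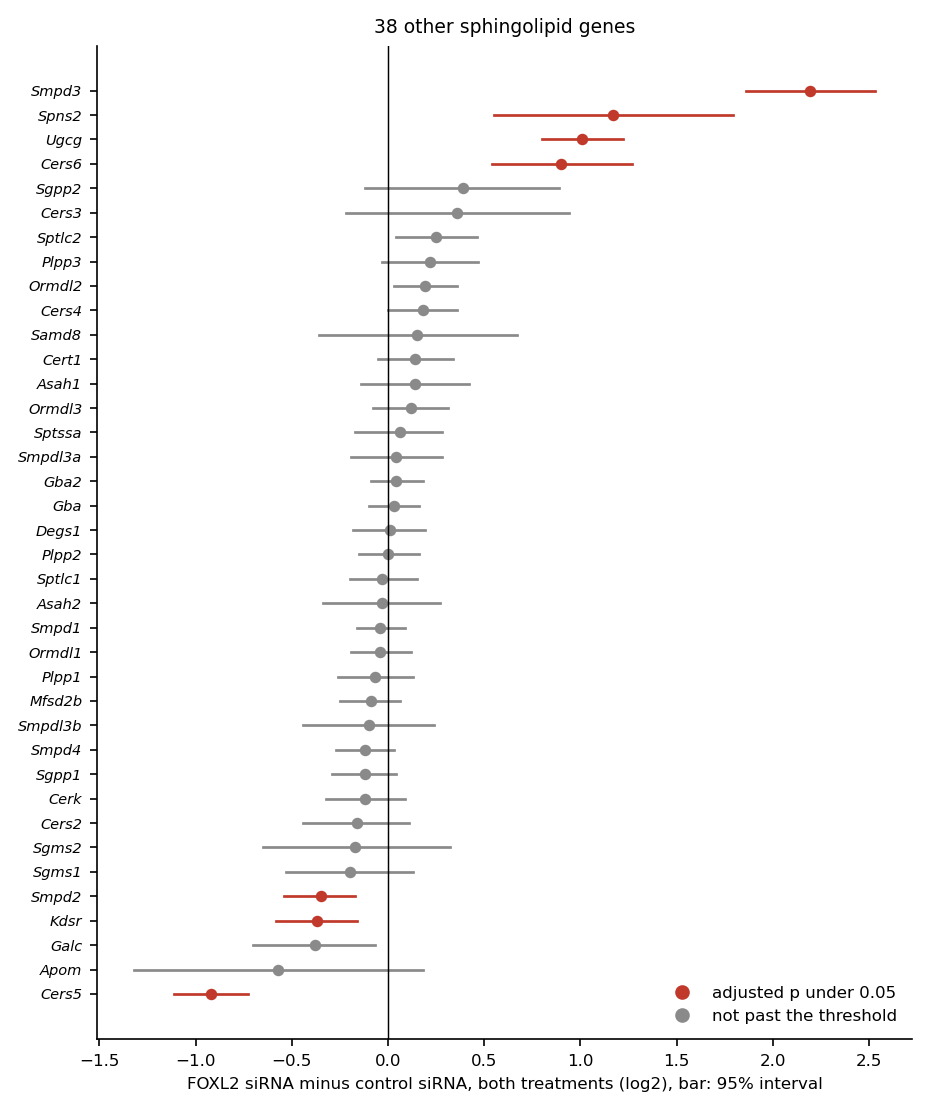
Difference of 38 further sphingolipid genes between FOXL2 siRNA and control siRNA over both treatments (horizontal axis, log2), sorted by size; points are fitted differences over 8 arrays, bars 95% intervals, and red marks an adjusted p under 0.05. Smpd3 lies farthest from 0, at 2.19, and 31 genes did not pass the threshold.

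Acer1, S1pr1 and S1pr5 met the rule for a search of similar patterns, a difference over both treatments above 1 log2 unit in size. For each the genes with the most similar pattern over the 8 arrays were looked up among 13378 well measured genes. For Acer1 they were Gatm, an enzyme of creatine synthesis, Sox9, a transcription factor of Sertoli cells, and Col3a1, a fibrillar collagen, with Pearson correlations of 0.997, 0.996 and 0.993. Sox9 read 5.66 and 5.87, 6.41 and 6.70, 8.39 and 8.46, and 7.71 and 8.27 in the same order of groups, so its highest and lowest groups were those of Acer1. For S1pr1 they were Dag1, the dystroglycan gene, Rnf144a, a ubiquitin ligase, and Piezo2, a mechanosensitive channel, at 0.989, 0.989 and 0.988. For S1pr5 they were Rrm1, Tpi1 and Spata13, at 0.995, 0.993 and 0.989. The S1pr5 values include 4 arrays that were not well above background, and all these correlations were taken from 2 siRNA groups that lie apart.

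**Figure D4:**
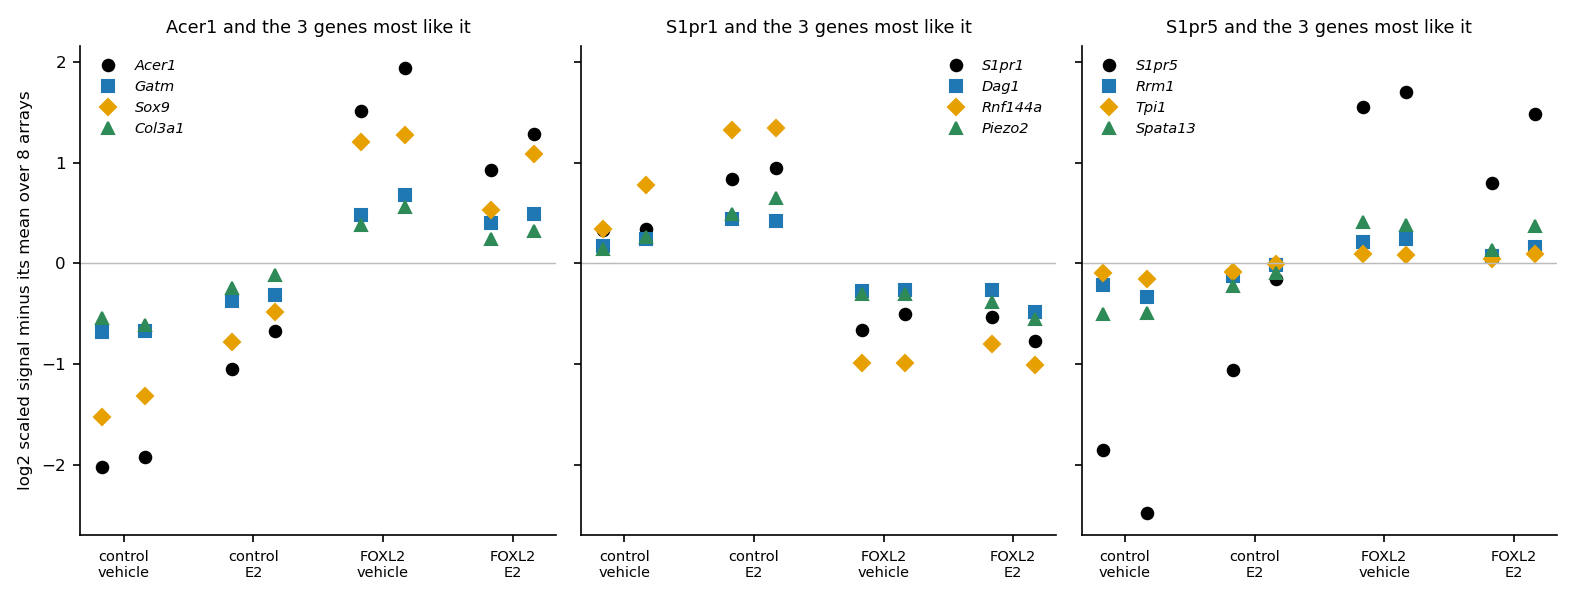
Log2 scaled signal of Acer1, S1pr1 and S1pr5 and of the 3 genes most like each, minus each gene's mean over the 8 arrays (vertical axis), by siRNA and treatment, with both arrays of a group side by side. Gatm and Col3a1 follow Acer1 over a smaller range than Sox9 does, and S1pr5 spans a wider range than Rrm1, Tpi1 and Spata13.

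The cultures could hold cells other than granulosa cells, in which S1P receptors are also expressed, and in bulk RNA fewer cells of a type and less RNA per cell cannot be told apart. Over both treatments limma called 0 of the 19 genes tested from lists for endothelial cells, macrophages, natural killer and lymphoid cells, theca cells, oocytes, smooth muscle and pericytes, and keratinocytes, with 2 to 4 tested per list, beside 12.6% of all genes. At an unadjusted p under 0.05 there were 5, Kdr, Csf1r, Cyp17a1, Star and Des, beside 4196 of all 15638 genes. Of 8 endothelial markers, 3 were well above background on any array. Cdh5, Tek, Emcn, Vwf and Cldn5 were not well above background on any array, and Pecam1 and Kdr differed by 0.04 and 0.36. The summed endothelial level lay between 10.15 and 10.84 with control siRNA and between 10.65 and 10.94 with FOXL2 siRNA. Within each treatment these sums did not overlap between siRNAs. With vehicle they were 10.30 to 10.84 against 10.89 to 10.94, and with E2 10.15 to 10.55 against 10.65 to 10.73. The part of endothelial cells in the values of the genes followed here was not tested. Of markers of natural killer and lymphoid cells, Nkg7 and Cd3e were well above background on all 8 arrays, differing by -0.01 and 0.08 over both treatments, Ncr1 was so on 1 array, and Gzma and Klrb1c on none.

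The theca list was the one whose sum did not overlap between siRNAs. It lay between 11.89 and 12.23 with control siRNA and between 12.46 and 12.69 with FOXL2 siRNA, and the part of these cells in the values of Acer1, S1pr5, Sphk1 and S1pr1 was not tested. Of its 3 genes on the array, Cyp17a1 and Star differed by 0.62 and 0.47 (limma adjusted p = 0.110 and 0.105), and Lhcgr was well above background on none of the arrays. The keratinocyte list, checked because Acer1 is known from skin, had a summed level of 7.43 to 8.08 with control siRNA and 7.52 to 7.87 with FOXL2 siRNA, with Krt14, Krt10 and Lor well above background on all 8 arrays, Krt5 on 4, Ivl on 2 and Krt1 on 0.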

How the data were processed

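Labels of the 8 samples gave the groups. Spot intensity in the deposited files came from Agilent Feature Extraction 11.5.1.1, which had subtracted the background and spatial trends. The authors' table holds log2 values per gene, which matched, after a constant per array, 98.6 to 98.9% of the values computed here within 0.001. Its row names gave the Entrez IDs, and a RefSeq table (GRCm38.p6) the symbols of 22352 of 24235 genes.

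Here 3671 control spots of 62976 and 42 non-uniform probes were left out. Signals were divided by the 75th percentile of the array (275 to 367 units) and multiplied by a common 320 units. The probes of a gene were averaged, and the 15638 genes whose median reached 10 on that scale were put on log2. These were fitted with limma 3.58.1 (R 4.3.3) as 4 group means over 8 arrays, with a spread that follows intensity, 4 residual degrees of freedom, two-sided tests, Benjamini-Hochberg adjustment over all genes and a threshold of 0.05. A bound ("at least") sets the dim group at the lowest signal well above background on each array, or at its own signal where that was higher. The scripts were tested on simulated data.

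The genes, the pathway and marker lists and the motifs were chosen with earlier results of these data known. Named pathway genes are those called in at least 1 comparison and well above background on every array of a compared group. The 3 genes most like each gene called with a difference over 1 are also named. Arrays carry no read depth, and 2 arrays per group limit the precision. All lay on 1 slide, so no batch could be tested. Arrays with the same replicate number in the labels deviated together from their group means (correlations of 0.33 to 0.44 over the 6 pairs of groups). Values or counts with the number as a block are therefore given where they change a call. Alternatives were normexp background correction (offset 50), quantile normalization, no filter, the brightest probe, the authors' table, a replicate block, no intensity trend, the compared groups alone and each array left out. Tables and figures used matplotlib 3.10.9, pandas 2.3.3 and numpy 2.4.6 under Python 3.11.15.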

Additional observations from a re-analysis of the deposited data

How the results depend on the processing

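S1pr1 over both treatments and with E2 and Sphk1 over both treatments kept their direction under every alternative, and kept their call except Sphk1 without control siRNA E2 replicate 1. With single arrays left out, the pathway count ranged from 3 to 5 with vehicle, 1 to 4 with E2 and 4 to 8 over both treatments, against 5, 3 and 7. Without the filter, without the intensity trend and with the compared groups alone it was 3 with vehicle, and without the trend it was 4 over both treatments. Quantile normalization took the difference of Sgpl1 over both treatments from 0.01 to 0.00. Normexp correction took that of S1pr5 between E2 and vehicle with control siRNA from 1.55 to 0.00. No array was well above background there, and the difference is not read. Among values near 0, leaving out single arrays turned the sign of S1pr1 between E2 and vehicle with FOXL2 siRNA (-0.19 to 0.05) and, over both treatments, of Acer3 (-0.11 to 0.04), S1pr3 (-0.03 to 0.24) and Sgpl1 (-0.09 to 0.12). Over all genes, the calls with vehicle were 1027, and 633 without the trend and 585 with the compared groups alone. Those with E2 were 686, and 379 without the trend. Those for the difference between E2 effects were 38, and 9 without the filter and 15 without the trend. Those for E2 were 3 with control siRNA, against 1 without the filter or the trend and 7 with normexp correction, and 2 with FOXL2 siRNA, against 0 to 1 without the filter, without the trend, with the brightest probe and with the compared groups alone. Leaving out 1 array gave 309 to 918, 131 to 629 and 4 to 10 calls with vehicle, with E2 and for that difference, 0 to 5 and 0 to 4 for E2 with control and FOXL2 siRNA, and 1181 to 1879 over both treatments against 1971. The cause of these changes was not tested.

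With a replicate block the all-gene calls were 2932 with vehicle, 2331 with E2, 4326 over both treatments, 182 and 96 for E2 with control and FOXL2 siRNA (against 3 and 2) and 332 for the difference between E2 effects. With the replicate block 1 of the genes was called for E2 with control siRNA and 1 for the difference between E2 effects, in both cases Acer1 (1.11, limma adjusted p = 0.00485, and -1.73, limma adjusted p = 0.00129), and S1pr2 was called over both treatments (-0.30, limma adjusted p = 0.00848). The pathway calls were 8, 9 and 11 with vehicle, with E2 and over both treatments, beside 18.7, 14.9 and 27.7% of all genes. The block changed no other call of Acer1, S1pr1 or Sphk1, nor any of Acer3, Sphk2, S1pr3 and Sgpl1 over both treatments. Counting Acer1 and S1pr5, 4 genes were called between siRNAs with vehicle and 4 with E2 under the block, against 3 and 3 without it.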
